A study of Homo sapiens with 4 samples.

Results

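The 10 genes of the death receptor system described here were TNFRSF10A, TNFRSF10B, TNFRSF10C, TNFRSF10D, TNFSF10, FAS, TNFRSF1A, CASP8, CFLAR and FADD. They were taken by symbol from the deposited expression table, and 10 of 10 were found among its 60612 lines. Expression had been measured by RNA sequencing in 4 libraries, 1 for each of 4 groups. In the first pair, HCC1937 breast cancer cells were given decitabine (DAC) at 0.3 µM for 5 days or were left untreated. In the second pair, THP-1 monocytic leukaemia cells were given 5 µM DAC for 2 days or were left untreated. Per the labels, the cells of all 4 groups lack p53 and were infected with p53-R282W, a mutant of the tumour suppressor. DAC is a deoxycytidine analogue that traps DNA methyltransferases and lowers methylation at CG dinucleotides as cells divide. Whether the infected cells were 1 clone or a pool is not given in the sources used here, and no uninfected library was analysed.

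Death receptors are members of the tumour necrosis factor receptor family that carry a death domain in their cytoplasmic part. When the ligand TRAIL (gene TNFSF10) binds TRAIL-R1 (TNFRSF10A) or TRAIL-R2 (TNFRSF10B), the adaptor FADD recruits caspase-8 (CASP8), which starts apoptosis. FAS works through the same adaptor, while the tumour necrosis factor receptor TNFRSF1A also feeds NF-kB signalling. TRAIL-R3 (TNFRSF10C), which is held in the membrane by a lipid anchor, and TRAIL-R4 (TNFRSF10D), whose death domain is truncated, bind the ligand without passing on the death signal and are called decoys. The CFLAR protein resembles caspase-8 but lacks its protease activity and competes with it at the receptor. Several of these genes are known as p53 targets.

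Values are FPKM, fragments per kilobase of exon, scaled to the reads counted in each library. The cell line labels held in the marker genes. Of 12 epithelial markers, 12 reached 1 FPKM with DAC and 12 untreated in HCC1937, and 4 with DAC and 3 untreated did so in THP-1. Of 12 myeloid markers, 1 reached 1 FPKM with DAC and 0 untreated in HCC1937, and 12 of 12 did so in both THP-1 libraries. The spacing of low values put the counted reads at about 18700000 with DAC and 18700000 untreated in HCC1937, and at about 19700000 with DAC and 19500000 untreated in THP-1. The authors' values for THP-1 used gene lengths unlike those behind HCC1937, so differences were taken within a line and levels were compared between lines only roughly.

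Because each group is 1 library, replicate spread is unknown and differences within a line carry no p-value. A gene was kept in a line when it reached 1 FPKM in at least 1 library of the pair. A kept gene was counted as risen or fallen when log2(FPKM + 1) differed by at least 2-fold, a scale that understates the change of low genes. Ratios of FPKM are given with exact 95% counting intervals (Clopper-Pearson, from estimated reads), which cover counting error only and not differences between cultures. By this rule 10.3% of 14058 kept genes rose in HCC1937 and 1.44% fell, so 87.8% of the changed genes were higher, against 76.3% under median-of-ratios scaling. In THP-1, 1.14% of 12075 kept genes rose and 0.364% fell. All kept genes together had a median log2 difference of 0.19 in HCC1937. It was 0.01 under median-of-ratios scaling and 0.05 under upper-quartile scaling, so differences in that line are read against this shift. In THP-1 the median was 0.07.

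Promoter windows from RefSeq (GRCh38.p14, 250 bases before to 50 bases after an annotated start) were used for 6 of the 10 genes. These were TNFSF10, FAS, TNFRSF1A, CASP8, CFLAR and FADD. Windows of the TNFRSF10 genes were not included, so the CG and motif counts do not cover TNFRSF10D or the other TRAIL receptors. Since DAC acts on CG methylation, 3 windows of low and high CG content are shown, 5′ to 3′ on the gene's strand, with each CG in capitals.
TNFSF10, chr3:172523381-172523680, minus strand: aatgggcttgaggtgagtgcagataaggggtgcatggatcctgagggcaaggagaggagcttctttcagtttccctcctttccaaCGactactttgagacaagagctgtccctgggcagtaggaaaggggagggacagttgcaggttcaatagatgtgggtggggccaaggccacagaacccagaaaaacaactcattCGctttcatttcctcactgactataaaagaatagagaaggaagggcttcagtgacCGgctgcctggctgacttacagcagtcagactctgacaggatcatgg
CASP8, chr2:201233213-201233512, plus strand: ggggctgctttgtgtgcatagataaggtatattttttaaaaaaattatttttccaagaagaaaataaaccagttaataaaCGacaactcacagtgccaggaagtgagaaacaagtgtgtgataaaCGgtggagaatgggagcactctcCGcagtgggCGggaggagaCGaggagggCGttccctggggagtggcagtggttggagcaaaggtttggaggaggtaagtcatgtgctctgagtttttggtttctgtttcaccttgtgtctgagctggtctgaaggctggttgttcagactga
FADD, chr11:70203046-70203345, plus strand: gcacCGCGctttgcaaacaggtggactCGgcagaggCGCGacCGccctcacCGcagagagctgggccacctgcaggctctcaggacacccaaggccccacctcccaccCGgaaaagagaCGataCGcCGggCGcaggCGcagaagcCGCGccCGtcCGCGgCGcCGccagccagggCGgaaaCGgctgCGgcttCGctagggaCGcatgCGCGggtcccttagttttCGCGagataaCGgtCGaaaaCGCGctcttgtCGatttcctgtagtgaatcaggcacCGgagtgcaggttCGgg

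The TNFSF10 window held 3 CG, more than 18.2% of 35116 windows of this length, and the CASP8 window held 6, more than 33.7% of them. The FADD window held 36, more than 87.3% of them, against a median of 14 over all windows. The single TNFRSF1A window held 4. The other starts of CASP8 had 5 and 6 CG, the 3 windows of FAS had 14 to 22, and the 4 windows of CFLAR had 0 to 22. At least 1 CG was present in 96% of all windows, and methylation was not measured in this series. The core of the interferon-stimulated response element, GAAA and GAAA with any 2 bases between them, was searched on both strands. It was found in 2 of the 13 windows, once in the TNFSF10 window (as TTTCAGTTTC on the strand shown) and once in the CASP8 window shown (as TTTCTGTTTC). Of all windows, 3.57% held a match, which is a description of the letters and not evidence of a bound site.

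The decoy receptor TNFRSF10D rose in HCC1937 and was the only one of the 10 genes to pass the size rule in either line. It stood at 14.4 FPKM with DAC and 0.24 FPKM untreated, about 953 and 16 reads. The ratio was 60, with a counting interval of 36.5 to 105, and the log2(FPKM + 1) difference was 3.64, the 35th largest gain of 14058 kept genes (chromosome 8, 23135588 to 23164030, hg38, GENCODE 29). It reached 1 FPKM in the DAC library and not in the untreated one. Untreated, its level exceeded that of 5.4% of kept genes, and with DAC that of 73.9%. In THP-1 it was present without DAC, at 4.58 FPKM with DAC and 3.21 FPKM untreated, a ratio of 1.43 (interval 1.12 to 1.81). That difference, 0.41 on the log2(FPKM + 1) scale, was below 2-fold. The difference in response between the lines was not tested, and dose and time differ between them. In bulk libraries, fewer cells with a transcript and less of it per cell cannot be told apart.

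Markers of other cell types were also higher with DAC in HCC1937. The summed level of 12 myeloid markers was 3.35 FPKM with DAC and 0.44 FPKM untreated, with CTSG and LYZ at 0 in both libraries. The sum of 6 lymphoid markers was 5.9 FPKM with DAC and 0.36 FPKM untreated, with MS4A1 at 0 in both. The sum of 6 fibroblast markers was 9.28 FPKM with DAC and 3.28 FPKM untreated, with DCN at 0 in both. In THP-1 the myeloid markers summed to 3396 FPKM with DAC and 3784 FPKM untreated. The 12 epithelial markers summed to 3456 FPKM with DAC and 4226 FPKM untreated in HCC1937. What part these shifts have in the TNFRSF10D difference was not tested.

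The other decoy, TNFRSF10C, was the lowest of the 10 genes in both HCC1937 libraries and in untreated THP-1 cells, and lay above FAS alone in THP-1 cells given DAC. In HCC1937 it stood at 0.62 FPKM with DAC and 0.21 FPKM untreated, on about 22 and 7 reads, and it was not kept. In THP-1 it stood at 1.02 FPKM with DAC and 0.38 FPKM untreated, on about 20 and 8 reads, with a log2(FPKM + 1) difference of 0.55. The FPKM ratios were 2.95 in HCC1937 (interval 1.3 to 8.71) and 2.68 in THP-1 (interval 1.04 to 6.5), so both intervals lay above 1 and were wide. Reads in THP-1 were estimated from approximated gene lengths, so whether the interval there excludes 1 is approximate. In GENCODE 29, AC107959.4 overlaps 26% of the exon bases of TNFRSF10C and AC107959.5 overlaps 13.3%, both on the same strand. Of the 50-base stretches in its longest transcript, 38.3% also occur in a transcript of another gene, all in these 2 overlapping genes. Some reads of TNFRSF10C may therefore not have been counted for it. For TNFRSF10D the share of such stretches was 0.831%, all in AC107959.2.

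The signalling receptors next to the decoys had nearly equal levels in the HCC1937 pair. TNFRSF10B (TRAIL-R2) stood at 24.6 FPKM with DAC and 24.3 FPKM untreated, a ratio of 1.01 (interval 0.955 to 1.07). TNFRSF10A (TRAIL-R1) stood at 8.92 FPKM with DAC and 8.55 FPKM untreated, a ratio of 1.04 (interval 0.917 to 1.19). Both log2 differences, 0.02 and 0.05, turned to -0.19 and -0.14 under median-of-ratios scaling and to -0.15 and -0.10 under upper-quartile scaling. In THP-1, TNFRSF10B stood at 15.4 FPKM with DAC and 11.6 FPKM untreated, a ratio of 1.33 (interval 1.2 to 1.48). TNFRSF10A stood there at 9.97 FPKM with DAC and 8.43 FPKM untreated, a ratio of 1.18 (interval 1 to 1.4). The lower limit of that interval is approximate, because THP-1 reads were estimated from approximated gene lengths. In each of the 4 libraries TNFRSF10B was the higher of the pair per exon length.

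**Figure D1:**
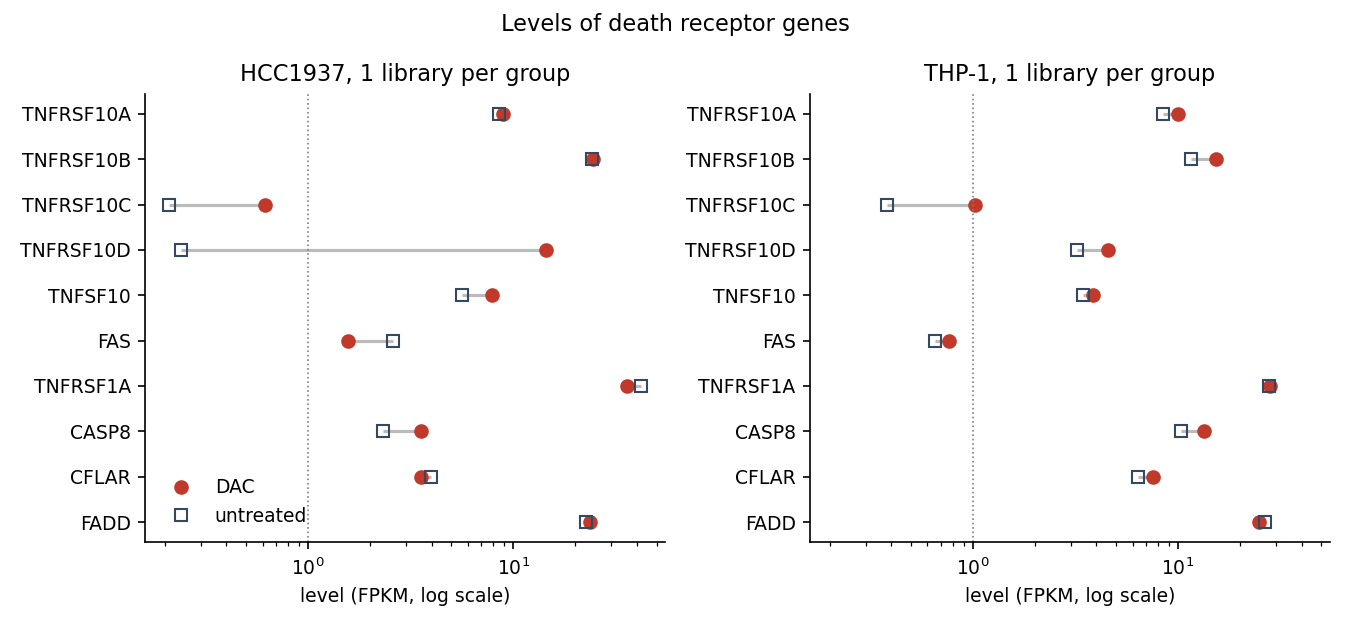
FPKM (log axis) of the 10 genes in the DAC library (filled circles) and the untreated library (open squares) of HCC1937 and THP-1, 1 library each, with the 1 FPKM filter dotted. TNFRSF10D spans 14.4 FPKM with DAC and 0.24 FPKM untreated in HCC1937, while TNFRSF10A, TNFRSF10B and FADD nearly coincide there.

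The makeup of the TRAIL receptor transcripts differed between the HCC1937 libraries. TNFRSF10D made up 29.7% of the summed FPKM of the 4 TNFRSF10 genes with DAC and 0.72% untreated, and TNFRSF10B 50.7% with DAC and 73% untreated. The summed level of both decoys, divided by that of both signalling receptors, was 0.448 with DAC and 0.0137 untreated, a 32.8-fold difference (interval 21.1 to 50.9, a normal approximation on the log scale from Poisson errors of the reads). This ratio is taken within a library and does not move with the scaling between libraries. In THP-1 it was 0.221 with DAC and 0.179 untreated, a 1.23-fold difference with an interval of 0.963 to 1.57, which includes 1. Reads in THP-1 were estimated from approximated gene lengths, so the width of that interval, and whether it includes 1, is approximate. The ratio of TNFRSF10B to TNFRSF10A was 2.76 with DAC and 2.85 untreated in HCC1937, and 1.54 with DAC and 1.37 untreated in THP-1, and both intervals of the difference included 1.

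**Figure D2:**
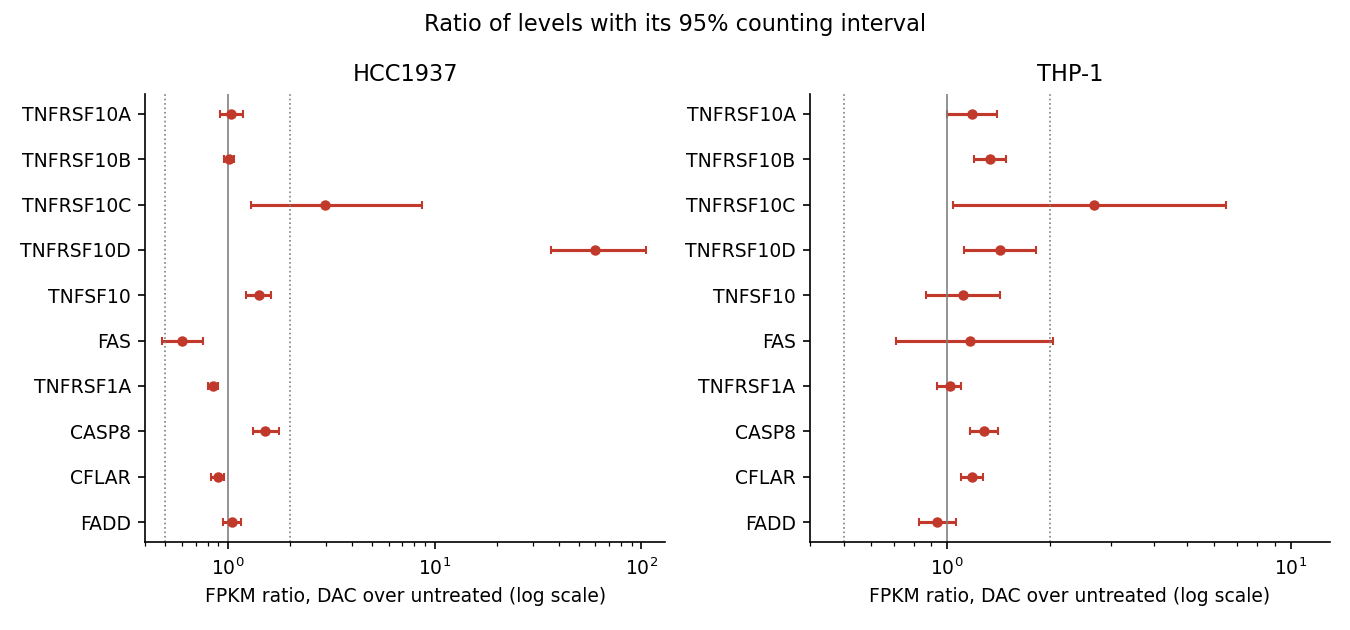
FPKM ratio of DAC over untreated (log axis) with exact 95% counting intervals, for HCC1937 and THP-1, with 2-fold either way dotted. The TNFRSF10D interval of 36.5 to 105 in HCC1937 lies apart from the other 19, and the wide TNFRSF10C intervals rest on 7 to 22 reads.

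The 4 TNFRSF10 genes lie side by side on chromosome 8, with starts -95 kb (TNFRSF10B), -61 kb (TNFRSF10C) and 61 kb (TNFRSF10A) from that of TNFRSF10D. Of 12 other genes around them, 10 were kept in HCC1937 and 9 in THP-1, and 0 passed 2-fold in either direction in either line. Of all kept genes, 10.3% rose and 1.44% fell in HCC1937, so 0 of 10 is near the background. In THP-1 1.14% rose and 0.364% fell. The median log2 difference of the kept neighbours was 0.11 in HCC1937, against 0.19 for all kept genes, and 0.05 in THP-1, against 0.07. The largest in HCC1937 was PDLIM2, an adaptor of the cytoskeleton at -586 kb, at 2.17 FPKM with DAC and 0.99 FPKM untreated, an FPKM ratio of 2.19 (interval 1.88 to 2.58) and a log2(FPKM + 1) difference of 0.67. CHMP7, of the membrane-sealing ESCRT machinery, lies 80 kb from the TNFRSF10D start and stood at 9.77 FPKM with DAC and 7.48 FPKM untreated. RHOBTB2, which shares 67 exon bases with TNFRSF10B on the opposite strand, stood at 2.21 FPKM with DAC and 1.5 FPKM untreated. In THP-1 the largest was ENTPD4, a nucleotide-hydrolysing enzyme, at 13.3 FPKM with DAC and 10.6 FPKM untreated. At a pseudocount of 0.1 in place of 1, 1 neighbour was past 2-fold in HCC1937, on the higher side.

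**Figure D3:**
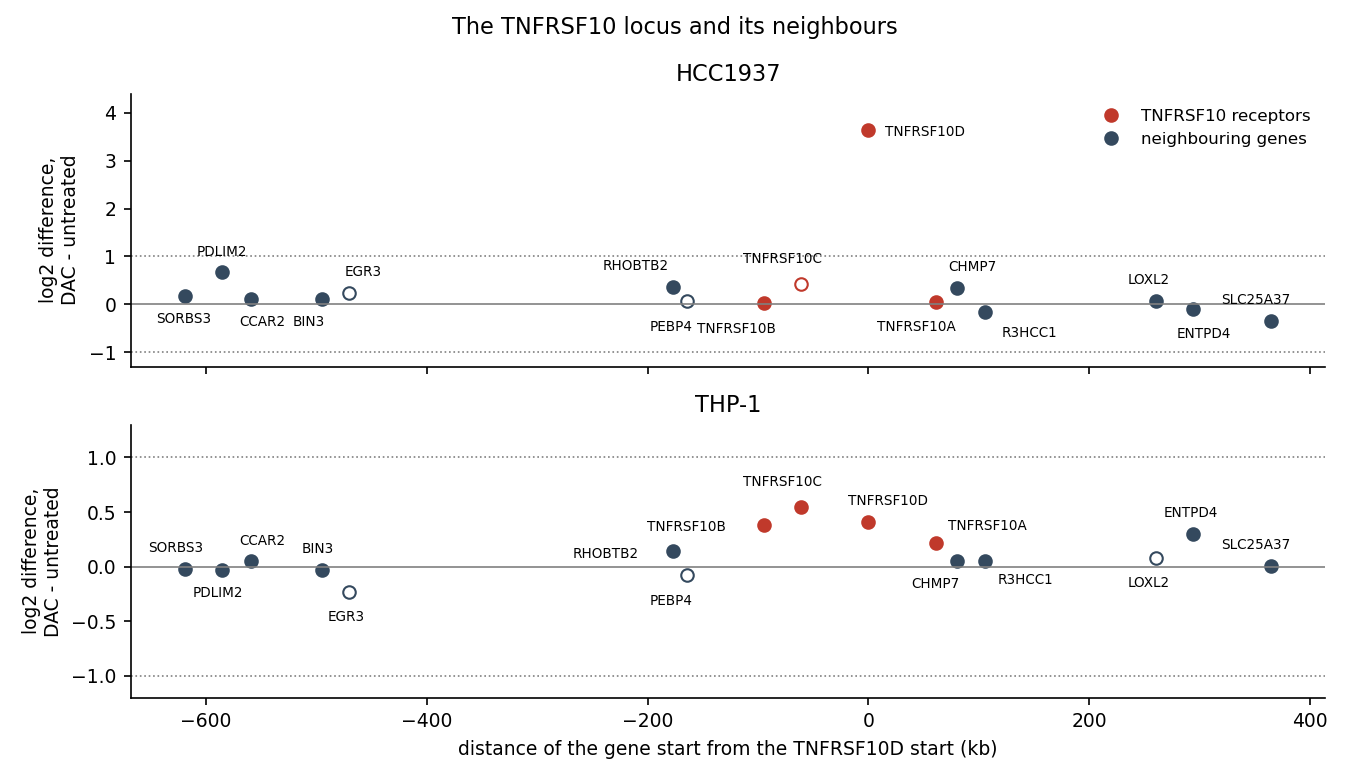
Log2(FPKM + 1) difference, DAC minus untreated, against the distance of each gene's start from that of TNFRSF10D, with 2-fold dotted. Red marks the 4 TNFRSF10 genes, blue the 12 neighbours and open circles genes under the filter, and in HCC1937 TNFRSF10D at 3.64 is the only one past 2-fold.

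The ligand TNFSF10 (TRAIL) stood at 7.9 FPKM with DAC and 5.62 FPKM untreated in HCC1937, a ratio of 1.41 (interval 1.23 to 1.61). In THP-1 it stood at 3.83 FPKM with DAC and 3.45 FPKM untreated, a ratio of 1.11 (interval 0.871 to 1.43). Neither difference reached 2-fold, and the HCC1937 value of 0.43 (log2) was 0.24 and 0.28 under the 2 scalings. In the HCC1937 pair the ligand and the decoy TNFRSF10D were both higher with DAC, the decoy by far more.

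The receptor FAS (chromosome 10, 88990582 to 89015785) had the lowest log2 difference of the 10 genes in HCC1937. It stood at 1.57 FPKM with DAC and 2.6 FPKM untreated, a ratio of 0.604 (interval 0.48 to 0.758) on about 125 and 207 reads. The log2(FPKM + 1) difference of -0.49 did not reach 2-fold, and it was -0.63 under median-of-ratios scaling and -0.60 under upper-quartile scaling. In THP-1 FAS stood at 0.76 FPKM with DAC and 0.65 FPKM untreated, below the filter, with an interval of 0.709 to 2.03. ACTA2 overlaps 8.93% of the exon bases of FAS on the opposite strand, and strand use in counting is not given in the sources used here. ACTA2, smooth muscle actin, stood at 1.69 FPKM with DAC and 0.97 FPKM untreated in HCC1937, so its value lay on the opposite side from that of FAS.

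TNFRSF1A, the main receptor of tumour necrosis factor, had the highest level of the 10 genes in each of the 4 libraries. It stood at 35.7 FPKM with DAC and 42.1 FPKM untreated in HCC1937, a ratio of 0.848 (interval 0.805 to 0.893). In THP-1 it stood at 28.2 FPKM with DAC and 27.8 FPKM untreated, a ratio of 1.02 (interval 0.936 to 1.1). The log2 difference in HCC1937, -0.23, was -0.44 and -0.40 under the 2 scalings, and in THP-1 0.02 turned to -0.06 and -0.01.

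Inside the cell, FADD, the adaptor shared by the TRAIL receptors and FAS, had nearly equal levels in both pairs. It stood at 23.8 FPKM with DAC and 22.7 FPKM untreated in HCC1937, a ratio of 1.05 (interval 0.95 to 1.16). In THP-1 it stood at 24.8 FPKM with DAC and 26.5 FPKM untreated, a ratio of 0.937 (interval 0.826 to 1.06). The HCC1937 log2 difference of 0.07 turned to -0.14 and -0.10 under the 2 scalings. The antisense gene AP000879.1 covers 54.9% of the exon bases of FADD and was listed at 0 in both HCC1937 libraries.

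CASP8, the initiator caspase (chromosome 2, 201233443 to 201287711), stood at 3.55 FPKM with DAC and 2.33 FPKM untreated in HCC1937, a ratio of 1.52 (interval 1.32 to 1.76). In THP-1 it stood at 13.3 FPKM with DAC and 10.4 FPKM untreated, a ratio of 1.28 (interval 1.17 to 1.41). Both intervals lay above 1 and below 2, and the log2 differences of 0.45 and 0.33 stayed positive under both scalings. Its inhibitor CFLAR (chromosome 2, 201116104 to 201176687), whose start lies 117 kb away, stood at 3.54 FPKM with DAC and 3.96 FPKM untreated in HCC1937, a ratio of 0.894 (interval 0.833 to 0.959). Its log2 difference of -0.13 was -0.30 under median-of-ratios scaling and -0.26 under upper-quartile scaling. In THP-1 CFLAR stood at 7.57 FPKM with DAC and 6.4 FPKM untreated, a ratio of 1.18 (interval 1.1 to 1.27). The ratio of CASP8 to CFLAR, which does not move with the scaling, was 1.00 with DAC and 0.588 untreated in HCC1937, a 1.7-fold difference (interval 1.46 to 2). In THP-1 it was 1.76 with DAC and 1.62 untreated, a 1.09-fold difference (interval 0.969 to 1.22). The exons of CFLAR add up to 22529 bases in GENCODE 29, so its FPKM in HCC1937 is an average over many isoforms and its level beside CASP8 depends on that length.

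Among 14 listed genes around CASP8 and CFLAR, 10 were kept in each line. In HCC1937, 1 rose and 0 fell, near the 10.3% and 1.44% of all kept genes. In THP-1 0 passed in either direction, against 1.14% higher and 0.364% lower among all kept genes. The risen gene was TRAK2, an adaptor of mitochondrial transport, at 6.69 FPKM with DAC and 2.7 FPKM untreated, and it no longer passed under either scaling. The splicing kinase CLK1 stood at 9.52 FPKM with DAC and 15.3 FPKM untreated in HCC1937, and at 11.6 FPKM with DAC and 9.64 FPKM untreated in THP-1. The median log2 difference of the kept neighbours was 0.15 in HCC1937 and 0.11 in THP-1, close to the 0.19 and 0.07 of all kept genes.

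Over the 9 death receptor genes kept in HCC1937, 1 rose and 0 fell, against 10.3% and 1.44% of all kept genes, so 1 of 9 is near the background. Their median log2 difference was 0.05. In THP-1 0 of 9 kept genes passed, with a median of 0.22 and values between -0.09 and 0.55. There 1.14% of all kept genes rose and 0.364% fell. The order of levels was led by TNFRSF1A, TNFRSF10B and FADD in HCC1937 and by TNFRSF1A, FADD and TNFRSF10B in THP-1, with or without DAC. In HCC1937 TNFRSF10D stood in place 4 of 10 with DAC and place 9 untreated. With no replicates, neighbours in this order cannot be separated beyond their spread. In HCC1937 with DAC, CASP8 and CFLAR differed by 0.01 FPKM.

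**Figure D4:**
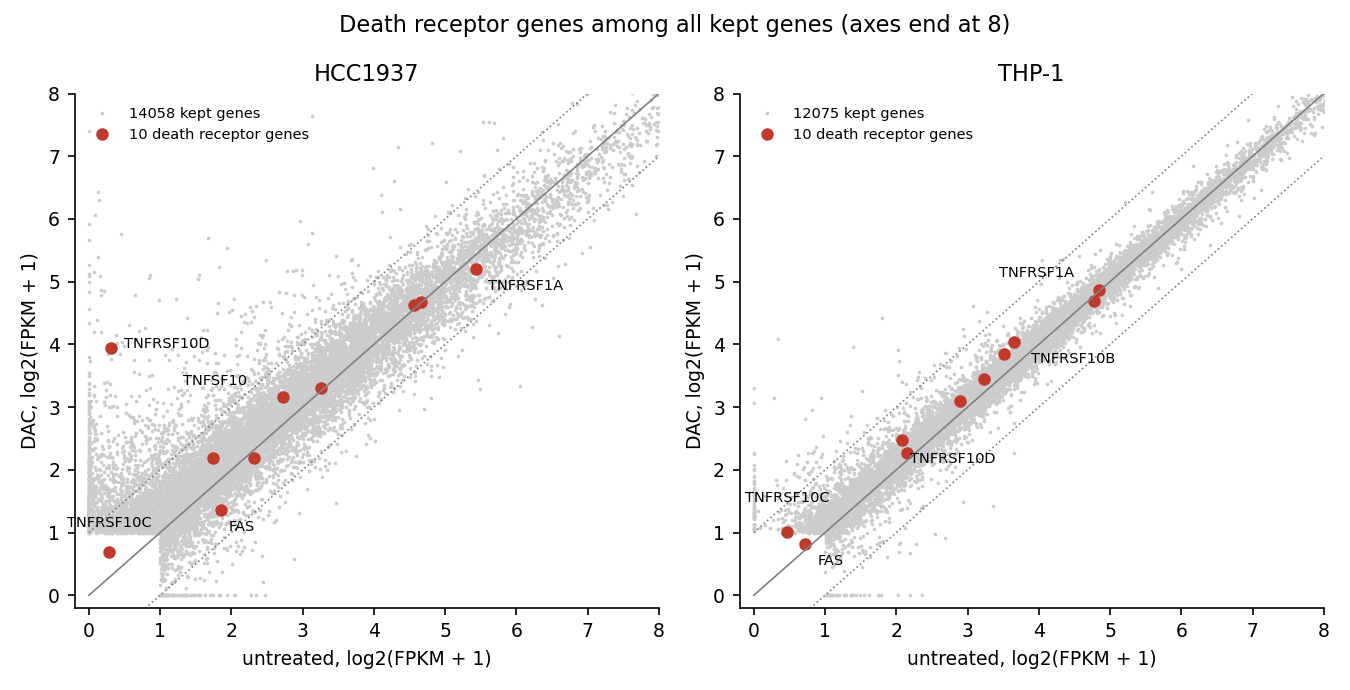
Log2(FPKM + 1) in the DAC library against the untreated library for all kept genes (grey) and the 10 death receptor genes (red), with equality solid, 2-fold dotted and axes that end at 8. TNFRSF10D is the only red point beyond 2-fold in HCC1937, and none is in THP-1. TNFRSF10C in HCC1937 and FAS in THP-1 lie below the filter.

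Over both lines together, limma with the line as a block called 0 of 13984 genes higher (0%) and 0 lower. The threshold was an adjusted p of 0.05 (Benjamini-Hochberg). By limma 565 genes had an unadjusted p below 0.05, fewer than that cutoff would pass if no gene differed. The fit had 1 residual degree of freedom, which holds only how unequally the 2 lines responded. None of the 10 genes was called. CASP8 had a log2 difference of 0.39 ± 0.15 (SE, unadjusted p = 0.0515 and adjusted p = 0.695 by limma), positive in 2 of 2 lines. TNFRSF10D had 2.02 ± 0.79 (SE, unadjusted p = 0.0598 and adjusted p = 0.695 by limma), also positive in both. The remaining adjusted p-values by limma lay between 0.695 and 0.984.

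Among other ligands and receptors of the family, 4 kept genes rose in HCC1937, among them LTA, which was kept through its DAC library alone. None passed in THP-1, where 1.14% of all kept genes rose and 0.364% fell. Of 16 listed genes, 11 were kept in HCC1937, 4 rose and 0 fell (10.3% and 1.44% of all kept genes). The median log2 difference was 0.76, with 7 values above 0 and 4 below. But 3 of the 11 were kept through the DAC library alone, LTA (1.46), TNFSF15 (0.85) and TNFSF12 (0.76). The median is the TNFSF12 value, so it rests on genes that entered only through their DAC level and does not describe the family. TNFRSF1B, the second tumour necrosis factor receptor, which lacks a death domain, rose to 10.3 FPKM with DAC, against 1.68 FPKM untreated. The cytokine TNF rose to 9.01 FPKM with DAC, against 3.19 FPKM untreated, and its relative LTA to 2.77 FPKM with DAC, against 0.37 FPKM untreated. NGFR, the neurotrophin receptor with a death domain, rose to 14.7 FPKM with DAC, against 5.71 FPKM untreated. TNFRSF12A, the receptor of TWEAK, had the lowest value, at 114 FPKM with DAC and 206 FPKM untreated. Its log2 difference of -0.85 did not pass 2-fold, but it did under both scalings, which made the count of fallen genes 1.

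Of 20 listed genes for proteins that meet at the receptor, 19 were kept in HCC1937, 1 rose and 0 fell, with a median of 0.21, against 10.3% and 1.44% of all kept genes. In THP-1 0 of 18 kept genes passed, with a median of 0.10, where 1.14% of all kept genes rose and 0.364% fell. The risen gene was TRAF1, an adaptor of tumour necrosis factor receptors, at 7.11 FPKM with DAC and 2.79 FPKM untreated, and it no longer passed under either scaling. CYLD, a deubiquitinase, stood at 6.08 FPKM with DAC and 4.12 FPKM untreated, and FAIM, an inhibitor of FAS-induced death, at 2.5 FPKM with DAC and 1.18 FPKM untreated. The largest differences in THP-1 were in the necroptosis pair. RIPK3, the kinase, stood at 4.85 FPKM with DAC and 2.84 FPKM untreated there, and MLKL, its substrate, at 8.83 FPKM with DAC and 5.83 FPKM untreated. BIRC2, a ubiquitin ligase of the receptor complex, stood at 8.86 FPKM with DAC and 6.6 FPKM untreated in THP-1.

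Downstream of caspase-8, 0 of 16 kept genes of the execution and mitochondrial arm passed in either line. Of all kept genes, 10.3% rose and 1.44% fell in HCC1937. In THP-1 1.14% rose and 0.364% fell, so 0 of 16 is near the background there. The medians of the 16 genes were 0.25 in HCC1937 and 0.08 in THP-1. XIAP, an inhibitor of caspases, stood at 7.09 FPKM with DAC and 4 FPKM untreated in HCC1937. DFFA, the inhibitor of a caspase-activated nuclease, stood at 19.3 FPKM with DAC and 11.7 FPKM untreated in HCC1937.

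Of 17 other p53 targets, 17 were kept in HCC1937, 2 rose and 1 fell, with a median of 0.31. Of all kept genes 10.3% rose and 1.44% fell, so 2 of 17 is near the background. TP53I3 rose to 12.03 FPKM with DAC, against 4.23 FPKM untreated. The cell cycle inhibitor CDKN1A rose to 110.7 FPKM with DAC, against 53.03 FPKM untreated, and under either scaling it no longer passed. BBC3, the pro-apoptotic PUMA, fell to 10.3 FPKM with DAC, against 22.9 FPKM untreated. In THP-1, where 1.14% of all kept genes rose and 0.364% fell, 0 of 16 kept targets passed, with a median of 0.16. The largest there was CDKN1A, at 47.7 FPKM with DAC and 33.0 FPKM untreated, followed by BTG2, an anti-proliferative gene, at 24.5 FPKM with DAC and 17.5 FPKM untreated.

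Of 10 interferon and NF-kB factors, 9 were kept in HCC1937, 1 rose and 0 fell, with a median of 0.10. With 10.3% of all kept genes risen and 1.44% fallen, 1 of 9 is near the background. IRF7, a factor of the interferon response, rose to 17.3 FPKM with DAC, against 0.12 FPKM untreated, a log2(FPKM + 1) difference of 4.03, and was kept through its DAC library only. IRF1 stood at 10.7 FPKM with DAC and 19.7 FPKM untreated, which passed 2-fold under median-of-ratios scaling. In THP-1, where 1.14% of all kept genes rose and 0.364% fell, 0 of 10 passed, with a median of 0.18. IRF9, a DNA-binding subunit of the interferon-activated complex ISGF3, stood there at 13.2 FPKM with DAC and 7.62 FPKM untreated, and IRF7 at 12.6 FPKM with DAC and 8.12 FPKM untreated.

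**Figure D5:**
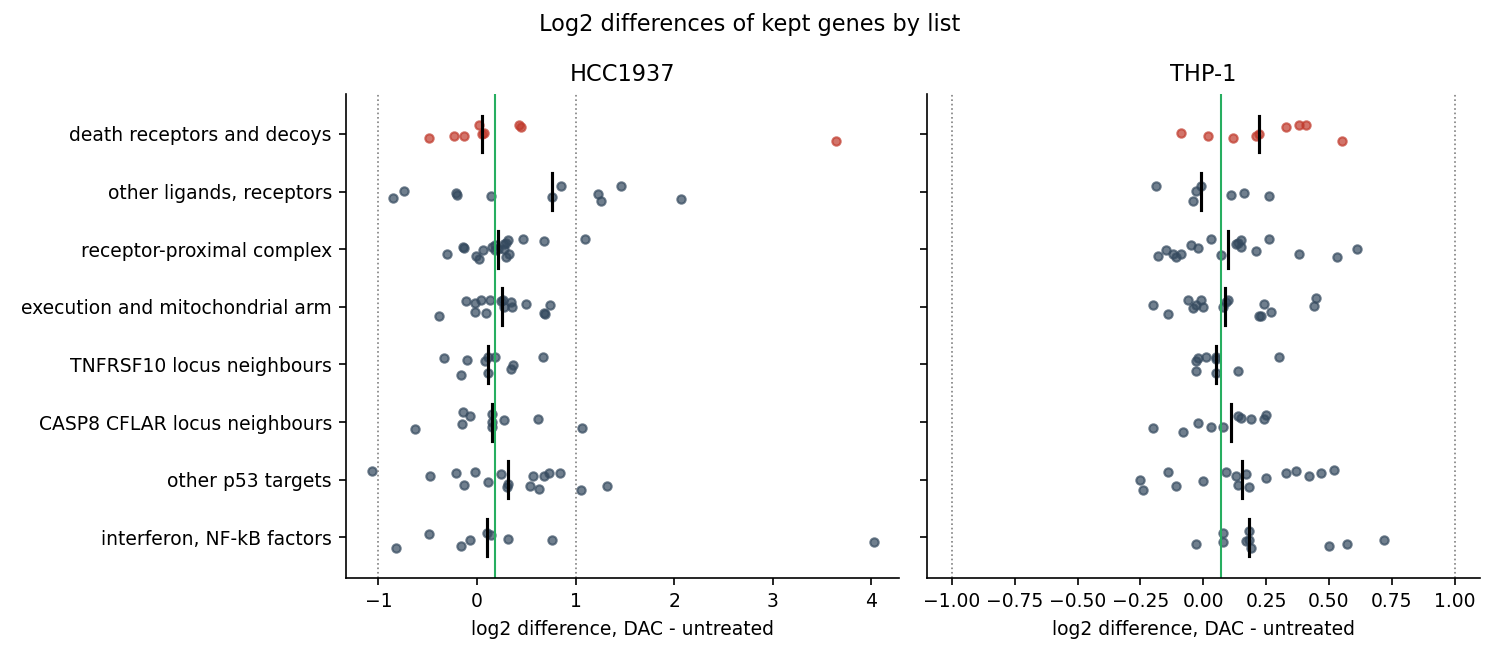
Log2(FPKM + 1) difference, DAC minus untreated, of each kept gene in the lists of related genes, by line, with black ticks at list medians, a green line at the median of all kept genes and 2-fold dotted. In HCC1937 the points past 2-fold include TNFRSF10D at 3.64 and IRF7 at 4.03, and in THP-1 none of the lists of related genes has one.

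Across the 4 libraries, 5 genes lay nearest to TNFRSF10D by Euclidean distance on log2(FPKM + 1), out of 23439 compared. They were ZNF114 (distance 1.26), NANOS1 (1.32), EIF4EBP3 (1.34), REC8 (1.35) and NEFH (1.37). ZNF114, a zinc finger gene, stood at 6.98 FPKM with DAC and 0.32 FPKM untreated in HCC1937, and at 2.36 FPKM with DAC and 2.24 FPKM untreated in THP-1. REC8, a meiotic cohesin subunit, stood at 9 FPKM with DAC and 1.28 FPKM untreated in HCC1937, and at 2.46 FPKM with DAC and 2.14 FPKM untreated in THP-1. A distance over 4 values describes the pattern only.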

How the data were processed

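RNA was sequenced in 4 libraries, 1 per group, and the authors deposited 1 table of values per gene. Per the submitters' processing notes the tools were FastQC, cutadapt, STAR and HTSeq with hg38, and versions, annotation and strand setting are not given in the sources used here. The deposited values were taken as FPKM from their behaviour: multiplied by GENCODE 29 exon lengths they sum to 0.983 and 0.987 of the expected total in HCC1937 (DAC, untreated). In THP-1 the sums were 1.84 and 1.83, so its lengths were approximated as exon length divided by 1.83. That line has values for 23440 of 59533 genes, and 1079 lines with 76 repeated symbols were left out. Of values of short genes (50 to 250 bases), 91.8% to 95.9% were whole reads within 0.1, which gave the depths and read numbers.

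Differences are log2(FPKM + 1), DAC minus untreated, at a filter of 1 FPKM and a threshold of 2-fold. The test over both lines was limma 3.58.1 (R 4.3.3) with a block for line and a trend on intensity. The steps were tested on simulated data. Samples were grouped by their titles. The 10 genes and all lists were chosen with earlier results of these data known. The p53 list also held 5 of the 10 genes (TNFRSF10A to TNFRSF10D and FAS), which are given on their own. Named were the 10 genes, each called gene of a list, genes among the 3 largest differences of a list and line, and the 5 genes nearest to TNFRSF10D. Some of these are not reported here. Overlapping genes, markers and CHMP7 were named after their values were seen. Alternatives changed the scaling, pseudocount, filter, threshold and limma's terms.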

Additional observations from a re-analysis of the deposited data

Results flagged for a closer look

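Of 52 genes considered, 13 had log2(FPKM + 1) differences of opposite sign in the 2 lines, with 1 pair of libraries each, and the difference between the lines was not tested. Values are the HCC1937 difference minus the THP-1 difference. Among the death receptor genes it was -0.58 for FAS, -0.25 for TNFRSF1A, -0.34 for CFLAR and 0.16 for FADD. The FADD and TNFRSF1A signs changed with the scaling in 1 line each, FADD in HCC1937 and TNFRSF1A in THP-1, and FAS lay below the filter in THP-1. Among other ligands and receptors it was 1.3 for TNF and -1.01 for TNFRSF12A. Among neighbours of the TNFRSF10 genes it was 0.71 for PDLIM2 and -0.40 for ENTPD4. Near CASP8 and CFLAR it was 0.70 for STRADB, -0.88 for CLK1, -0.32 for NDUFB3 and 0.36 for NIF3L1. For the factor IRF1 it was -1.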

How the results depend on the processing

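Among kept genes, TNFRSF10D was the only death receptor gene past the threshold in HCC1937 under each alternative run within that line. Its log2 difference was 5.42 at a pseudocount of 0.1 and 1.25 at 10. In THP-1 the count of 0 became 1 (TNFRSF10C) at a pseudocount of 0.1. The TNFRSF10C log2 difference was then 1.22 in THP-1 and also 1.22 in HCC1937, where the gene lay under the 1 FPKM filter and was not counted. The number of all genes higher in HCC1937, 1452, was 2323 at a pseudocount of 0.1, 131 at 10, 550 at a filter of 5 FPKM, 3084 at 1.5-fold and 529 at 3-fold. The number lower, 202, was 360 under median-of-ratios scaling, 317 under upper-quartile scaling, 383 and 31 at the 2 pseudocounts, 108 at 5 FPKM, 831 and 30 at the 2 folds, and 120 with the counting interval beyond 2-fold. Of called genes, 87.8% were higher as deposited and 76.3% under median-of-ratios scaling. In THP-1 the 138 higher became 297 and 3 at the pseudocounts, 42 at 5 FPKM, 398 and 30 at the folds, and 43 by interval. The 44 lower became 74 and 0 at the pseudocounts, 4 at 5 FPKM, 121 and 9 at the folds, and 1 by interval. Limma called 0 genes under each of its alternatives, including 1 added after seeing the data (1 FPKM in both lines, 9798 genes). Limma paired the DAC and untreated libraries by cell line, and without that block 3 genes had an unadjusted p below 0.05, against 565 with it. No paired analysis was possible because the groups compared share fewer than 2 replicate numbers, apart from that pairing by line. The causes were not tested.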
